A study of Mus musculus with 4 samples.

Results

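Open chromatin of the mouse facial surface ectoderm at E11.5 was compared between control embryos and EDKO embryos, and the AP-2-dependent regions that lie far from every protein-coding start site and between coding genes are described here. AP-2-dependent regions are sites called as more accessible in control than in EDKO ectoderm. The whole list held 3103 such regions, of which 3010 were on chromosomes 1 to 19. A region was taken as remote intergenic when its centre was more than 100 kb from the nearest protein-coding start site and its summit lay outside every protein-coding transcript (1 principal transcript per gene). This rule gave 710 regions. With all coding transcripts in place of the principal ones, 48 of them lay within 100 kb of another start and 35 had the summit inside another transcript. The limit is on starts only, so a region can lie close to the far end of a gene. The remaining autosomal regions comprised 818 intergenic regions 5 to 100 kb from a start, 1162 regions more than 5 kb from a start with the summit inside a protein-coding transcript, and 320 regions within 5 kb of a start.

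Control embryos were Tfap2a flox/+; Tfap2b flox/+ littermates without the Crect transgene, and EDKO embryos were Crect; Tfap2a flox/flox; Tfap2b flox/flox, so that both groups carried floxed alleles of both genes. Crect expresses Cre recombinase under an enhancer taken from an intron of Tfap2a, and deletion is therefore aimed at the ectoderm, although broader recombination can occur. Each group had 2 libraries of ATAC-seq, an assay in which a transposase cuts accessible DNA, made from ectoderm pooled over the facial prominences. The deposited lists combine the libraries of each call, so that no region has a value per library, the depth behind a region is unknown, and no error between replicates can be given. Intervals below are 95% Wilson intervals on counts of regions, which cover counting error only, and regions are not replicates. The list of 65467 control peaks came from the same 2 control libraries as the AP-2-dependent list, and each of the 3103 regions lay inside exactly 1 control peak. No list of regions that gained accessibility in EDKO embryos was used here.

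AP-2 proteins are transcription factors that bind GC-rich palindromic DNA as dimers, and AP-2α and AP-2β, made from Tfap2a and Tfap2b, are the family members removed in EDKO ectoderm. Distal enhancers are short stretches of open DNA that can act on a promoter over long distances, and developmental regulators often sit beside long stretches without coding genes, known as gene deserts. Which promoter a remote element acts on cannot be read from its position, so gene names below give places on the map and not targets. Promoters of marker genes were also examined: a control peak lay within 500 bp of the start of 10 of 10 surface ectoderm genes, among them Trp63, Epcam and Grhl2, of 9 of 10 mesenchyme and neural crest genes, of 3 of 5 neural genes and of 1 of 7 endothelium and blood genes. The share over all promoters was not counted. With ectoderm and mesenchyme genes so alike, these counts cannot tell the labelled tissue from mesenchyme. The part of other cell types in the remote regions was not tested.

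The DNA of 9 remote regions is printed here because it shows where AP-2 strings sit relative to the summit in regions named below. The windows run from 100 bases before to 100 bases after the summit, on the plus strand of GRCm38 (mm10), with sequence from RefSeq. They come from 20 windows, namely the 10 single-copy regions with the highest summit −log10 p and the highest single-copy region of each of 10 gene-free intervals described below. Capitals mark matches to GCCNNNGGC or CCTNAGG, the AP-2 strings searched on both strands. All 7 windows that hold either string are shown, and 2 of the 13 without one, near Klf5 and Tfap2b, were added after the matches were seen. The Nfe2l3 window (chr6:51076854-51077054) has 3 matches to GCCNNNGGC, the last overlapping the one before it and holding a match to CCTNAGG. The windows near Cog6 (chr3:52663232-52663432), Tbc1d1 (chr5:64441463-64441663), Ttll7 (chr3:147680299-147680499), Trps1 (chr15:51038997-51039197) and Acvr2a (chr2:47926741-47926941) hold 1 match each to CCTNAGG. The Efnb2 window (chr8:8416424-8416624) holds 1 match to GCCNNNGGC, and those near Klf5 (chr14:99579454-99579654) and Tfap2b (chr1:19583768-19583968) hold neither string.
Nfe2l3: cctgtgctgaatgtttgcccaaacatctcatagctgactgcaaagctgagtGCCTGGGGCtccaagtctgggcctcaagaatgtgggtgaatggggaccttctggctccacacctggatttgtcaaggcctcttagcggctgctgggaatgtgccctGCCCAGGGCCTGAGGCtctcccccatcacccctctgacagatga
Cog6: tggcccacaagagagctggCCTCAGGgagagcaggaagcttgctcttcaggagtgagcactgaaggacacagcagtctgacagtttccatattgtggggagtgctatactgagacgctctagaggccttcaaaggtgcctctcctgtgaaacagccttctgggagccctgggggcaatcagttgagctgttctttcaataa
Tbc1d1: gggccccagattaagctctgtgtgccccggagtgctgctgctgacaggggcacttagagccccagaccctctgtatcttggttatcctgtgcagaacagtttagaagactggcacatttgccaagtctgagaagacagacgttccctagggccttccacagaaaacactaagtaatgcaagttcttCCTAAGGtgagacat
Ttll7: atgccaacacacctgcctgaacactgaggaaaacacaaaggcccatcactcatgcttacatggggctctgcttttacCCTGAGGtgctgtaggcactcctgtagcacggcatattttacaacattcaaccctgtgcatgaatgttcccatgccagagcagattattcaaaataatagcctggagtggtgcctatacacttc
Trps1: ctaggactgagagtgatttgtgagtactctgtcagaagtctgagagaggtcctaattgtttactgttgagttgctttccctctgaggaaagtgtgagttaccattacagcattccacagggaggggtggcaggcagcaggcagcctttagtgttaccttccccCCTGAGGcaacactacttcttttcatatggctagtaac
Acvr2a: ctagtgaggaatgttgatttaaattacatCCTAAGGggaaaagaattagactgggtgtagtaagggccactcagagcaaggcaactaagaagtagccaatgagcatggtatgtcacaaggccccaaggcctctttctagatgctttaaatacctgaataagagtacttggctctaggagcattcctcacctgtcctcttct
Efnb2: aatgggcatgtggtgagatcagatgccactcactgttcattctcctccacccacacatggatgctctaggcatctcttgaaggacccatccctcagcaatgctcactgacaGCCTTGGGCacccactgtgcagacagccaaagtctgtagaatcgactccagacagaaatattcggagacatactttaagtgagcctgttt
Klf5: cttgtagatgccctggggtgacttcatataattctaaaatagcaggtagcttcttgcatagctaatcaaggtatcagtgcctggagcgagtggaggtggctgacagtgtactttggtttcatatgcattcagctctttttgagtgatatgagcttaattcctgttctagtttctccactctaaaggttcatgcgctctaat
Tfap2b: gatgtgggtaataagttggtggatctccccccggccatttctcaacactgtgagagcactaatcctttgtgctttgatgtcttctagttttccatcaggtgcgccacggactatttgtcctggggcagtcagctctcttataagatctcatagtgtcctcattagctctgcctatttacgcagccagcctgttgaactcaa

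In these windows the matches did not sit at the summit itself. The nearest to a summit was that of Efnb2, with its centre 15 bases to the right, followed by that of Ttll7 at 20 bases to the left. The Cog6 match lay 78 bases to the left and the Tbc1d1 match 89 bases to the right.

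The regions themselves were short, single-copy and of moderate GC content. Their median width was 375.5 bp (quartiles 296 and 475 bp). The window around the summit had a median GC content of 45.8%, against 48.3% in remote control peaks without a region, and a median of 2 CpG dinucleotides. A total of 668 of the 710 regions were single-copy, meaning that the 31-base words of the window occurred in the assembly with a median count below 2 (94.1%, interval 92.1 to 95.6%). Among remote control peaks that overlapped no region the share was 87.1% (86.4 to 87.9%), so the intervals did not overlap. At least 50% of the window was soft-masked as repeat in 34 regions (4.79%, 3.45 to 6.62%) and in 12.2% (11.4 to 12.9%) of the remote control peaks without a region.

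The call of lower accessibility in EDKO ectoderm is what the regions were chosen by, so their strength is a description. The −log10 p at the summit, given by the peak caller for the combined libraries and not adjusted, had a median of 4.35 and quartiles of 3.85 and 5.13. The area, which sums −log10 p along each region, had a median of 396 and was at least 500 in 243 regions. Just inside the distance limit lay regions near Fry at 100.461 kb (−log10 p 4.54), Supt20 at 100.743 kb (7.25), Ankrd50 at 100.913 kb (4.196), Hrh1 at 101.789 kb (11.5) and Myc at 101.827 kb (3.49). Just outside it lay intergenic regions near Rap2a at 99.912 kb (5.69), Wls at 99.807 kb (44.2), Atg7 at 99.789 kb (11.9), Kitl at 99.767 kb (3.58) and Rnf152 at 99.504 kb (4.23). The Hrh1 and Atg7 entries belong to 1 repeated stretch that the limit divides.

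Among control peaks, remote intergenic sites were in the AP-2-dependent list more often than sites of each other class by place. Of all autosomal control peaks 4.51% (2882 of 63926) overlapped a region. The share was 8.37% of the remote intergenic control peaks (707 of 8443, interval 7.80 to 8.98%), 4.76% of the intergenic control peaks 5 to 100 kb from a start (4.44 to 5.09%), 5.52% of the distal control peaks inside protein-coding transcripts (5.21 to 5.85%) and 1.54% of those at most 5 kb away (1.38 to 1.73%). The share rose with the strength of the control peak, so the peaks were also divided into 10 equal groups by their own summit −log10 p. Remote peaks had the highest share of the 4 classes in each of the 10 groups. In group 4 the share was 5.70% of remote peaks (4.45 to 7.27%) against 1.89% of intergenic peaks nearer to a start (1.37 to 2.61%). In group 8 it was 20.9% (17.96 to 24.1%) against 9.39% (8.04 to 10.9%), and in the strongest group 40.0% (32.7 to 47.7%) against 26.6% (23.1 to 30.5%). In the weakest group it was 0.761% (0.401 to 1.44%) against 0.364% (0.176 to 0.749%), intervals that overlap. Distal peaks inside protein-coding transcripts had 2.54% in group 4 (1.98 to 3.25%) and 13.1% in group 8 (11.6 to 14.7%). In the strongest group they had 20.25% (16.9 to 24.1%). Both lists share the control libraries, so these shares describe the lists and carry no test.

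**Figure D1:**
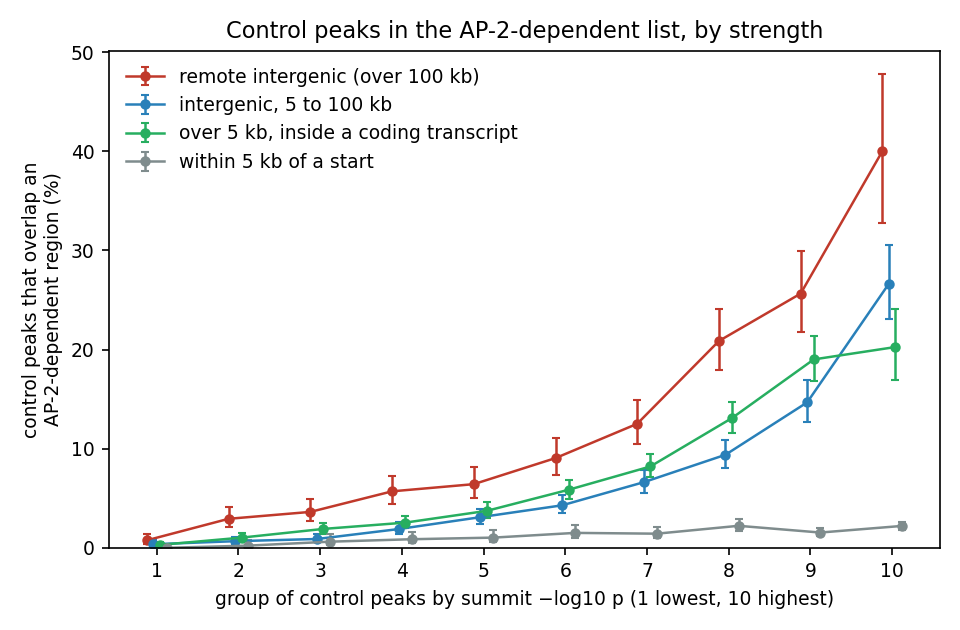
Share of control peaks that overlap an AP-2-dependent region (y axis, %) in 10 groups of the same size ranked by the summit value of the control peak (x axis, −log10 p, 1 lowest), for 4 classes by place relative to protein-coding genes. Points are shares, bars are 95% Wilson intervals, and the remote class runs from 0.761% in group 1 to 40.0% in group 10.

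Remote control peaks without a region had a median GC content of 48.3%, against 51.7% for those 5 to 100 kb from a start, and among remote peaks the share with a region fell with GC content. In the group of control peaks with a GC content up to 41.3%, 11.9% of remote peaks overlapped a region (10.2 to 13.9%), against 5.44% of intergenic peaks 5 to 100 kb from a start (4.12 to 7.16%). In the group above 49.8% the shares were 5.84% (5.12 to 6.66%) and 3.97% (3.62 to 4.37%). The remote share was the higher of both in each of the 4 GC groups. For distal peaks inside protein-coding transcripts the share also fell with GC content. It was 8.87% up to 41.3% GC (7.43 to 10.5%), an interval that overlaps the remote one, and 4.28% above 49.8% GC (3.93 to 4.66%).

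Distance above the limit spread widely. The median distance to the nearest protein-coding start was 247 kb, with quartiles of 153 and 463 kb. Of the 710 regions, 357 lay at 100 to 250 kb, 194 at 250 to 500 kb, 126 at 500 to 1000 kb and 33 beyond 1000 kb. The nearest start was upstream or downstream in about equal numbers: 366 regions lay upstream of it (51.5%, 47.9 to 55.2%), and so did 51.0% of the remote control peaks without a region. The share of remote control peaks that overlapped a region was 7.54% at 100 to 250 kb (6.82 to 8.33%), 8.11% at 250 to 500 kb (7.08 to 9.27%) and 11.8% beyond 500 kb (10.2 to 13.6%). The farthest class had the lowest median control −log10 p, at 4.42 against 4.54 in the nearest class. Median GC content of the control peaks also fell with distance, from 49.25% through 47.26% to 45.27%. Distance was not examined within GC groups, so a part of GC content in this rise was not tested. In control strength groups 8 to 10 the share was 23.6% at 100 to 250 kb (20.8 to 26.8%) and 33.1% beyond 500 kb (26.1 to 41.0%), intervals that overlap slightly. In groups 1 to 5 it was 2.99% (2.44 to 3.67%) and 6.45% (5.03 to 8.23%).

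**Figure D2:**
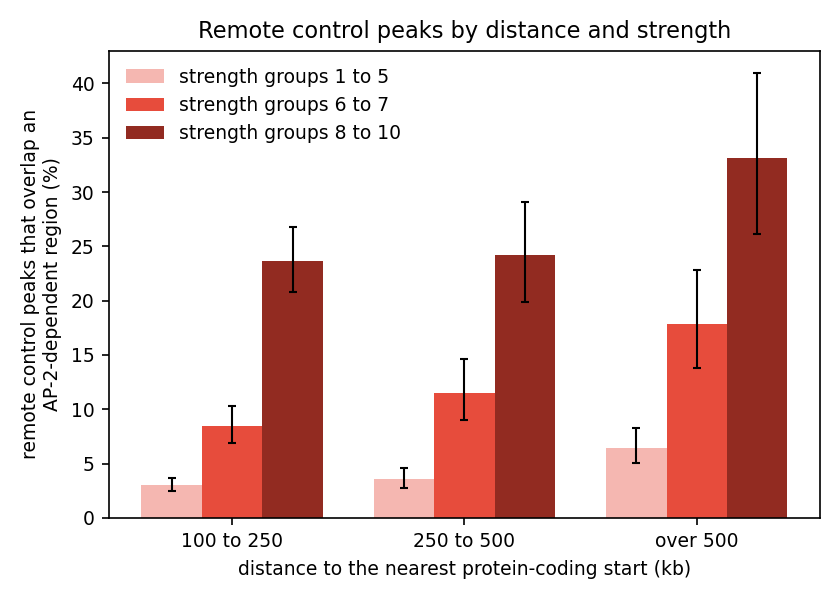
Share of remote control peaks that overlap an AP-2-dependent region (y axis, %) by distance to the nearest protein-coding start (x axis, kb) and by control strength group (colours). Bars start at 0 and whiskers are 95% Wilson intervals, and in each of the 3 strength ranges the class beyond 500 kb has the highest share, 33.1% in groups 8 to 10.

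The farthest single-copy region lay 2176.6 kb upstream of Pcdh20, a protocadherin gene, in the 4542 kb between Pcdh20 and Pcdh9 (chr14:90647770-90648156, −log10 p 3.85). A further region of the same desert lay 1751.8 kb from Pcdh20. The others among the 5 farthest lay 2021.0 kb upstream of Celf4, 1695.5 kb downstream of Pla2g4a and 1682.7 kb upstream of Tyrp1. Of these 5, the Pla2g4a region was the strongest, with a −log10 p of 7.36 and an area of 1450.

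The strongest single-copy regions stood at scattered places. Most had no listed AP-2 string, and neither did most remote regions, since 331 of 710 held GCCNNNGGC or CCTNAGG (46.6%). Leading in both −log10 p (208) and area (485400) was a 5942 bp stretch of chromosome 17 that holds the ribosomal RNA annotation CT010467.1 and the lincRNA Gm42418. Ribosomal DNA is present in many copies in the genome but stands once here in the assembly, so the count of words does not mark it as repeated. Next came a 273 bp region 148.8 kb downstream of Epm2a with a −log10 p of 17.3 and a GC content of 75.1%. The third was 280.8 kb downstream of Klf5, a zinc finger transcription factor gene active in epithelia (chr14:99579315-99579762, −log10 p 12.1, area 1791). The fourth, at 11.3, lay 198.3 kb downstream of Samd9l, between that gene and the chromosome end, with control −log10 p 19.9. Copies missing from the assembly, which the count of words cannot show, were not examined there. The fifth, at 10.9, lay 159.9 kb downstream of Kcna5, a potassium channel gene. The Nfe2l3 region followed at 10.5, 355.7 kb upstream of that gene, with control −log10 p 14.5. Regions near Cog6 (9.73), Gas1 (9.51), Tenm4 (8.82) and Tbc1d1 (8.66) completed the 10. By area, the Tbc1d1 region (2538) and regions near Spock3 (2362), Kcnip4 (2262), Tle3 (2169), Ccdc3 (2117) and Sh3bp4 (1826) were also among the 10 highest, and 5 regions were in both sets of 10. The Ccdc3 and Kcnip4 windows hold GCCNNNGGC 26 bases to the left and 58 bases to the right of their summits.

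Remote regions were spread over many gene-free intervals. An interval here is the DNA between neighbouring protein-coding transcripts. The 710 regions fell in 415 of the 1369 intervals that held a remote control peak (30.3%). Of the 415, 264 held 1 region, 82 held 2, 36 held 3, 18 held 4 and 15 held 5 or more. The 10 intervals with the most single-copy regions were taken, ties being broken by all regions and then by length. Of 5 intervals tied at 5 single-copy regions, this kept Celf2 to Gata3 and Vrk1 to 3110018I06Rik and left out Robo2 to Lipi, Thap1 to Zfp703 and Tut7 to Gas1. The 10 held 71 regions, 70 of them single-copy, and 334 remote control peaks, of which 70 overlapped a region. These intervals were picked by their counts, so their shares are a description beside the 8.37% of all remote control peaks.

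The interval between Ttll7 and Adgrl2 on chromosome 3 held the most, with 12 regions, all single-copy, in 1833 kb. Ttll7 encodes a tubulin-modifying enzyme and Adgrl2 an adhesion receptor of the latrophilin group. Of its 43 remote control peaks 12 overlapped a region (27.9%, 16.8 to 42.7%). The strongest lay 828.1 kb downstream of Ttll7 (−log10 p 8.02, area 1068), and the other 11 had a −log10 p between 3.07 and 5.79. On the Adgrl2 side, 7 regions lay between 349.9 and 627.4 kb from that gene's start, among them a pair 2.10 kb from end to end.

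Downstream of Tfap2b, itself one of the deleted genes, the 819 kb interval up to Pkhd1 held 9 regions, all single-copy. They lay from 264.6 to 617.5 kb from the Tfap2b start. Of 29 remote control peaks in that interval 9 overlapped a region (31.03%, 17.3 to 49.2%). The strongest region (chr1:19583680-19584076) had a −log10 p of 6.78 and an area of 1014, and its neighbour 371.7 kb from the start had 4.21. Regions at 490.9 and 617.5 kb had 5.00 each, and the remaining regions ranged from 3.43 to 4.70. CCTNAGG lay within 100 bp of the summit in 3 of the 9, those at 268.4, 526.7 and 617.5 kb, and GCCNNNGGC in none of them. Of the other AP-2 genes, 2 were also nearest to a single-copy remote control peak, and neither was nearest to a region.

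Between Trps1, which encodes a GATA-type zinc finger protein, and Eif3h, a translation factor gene, 8 regions lay in 897 kb, and 8 of 21 remote control peaks overlapped one (38.1%, 20.8 to 59.1%). A run of 7 lay upstream of Trps1, from 149.4 to 454.4 kb. The nearest was the strongest (chr15:51038816-51039320, −log10 p 6.26, control −log10 p 8.90), followed by those at 250.2 kb (5.70) and 181.6 kb (5.59).

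The other intervals of the 10 were longer or sparser. Between Zeb2, a zinc finger repressor gene, and Acvr2a, an activin receptor gene, 7 regions lay in 3697 kb, with −log10 p from 4.08 to 5.86, and 7 of 50 remote control peaks overlapped one. Between Slc10a2 and Efnb2 there were 6 regions in 3512 kb, 5 of them on the side of Efnb2, an ephrin ligand gene. Those 5 lay 131 to 829 kb from the Efnb2 start. GCCNNNGGC was within 100 bp of the summit in each of these 5, against 15 of the 71 regions of the 10 intervals and 24.51% of all remote regions, and this group was singled out after the matches were seen. Between Pabpc4l and Pcdh18, 6 of 15 remote control peaks overlapped a region (40.0%, 19.8 to 64.2%).

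Between Camk1g and Plxna2, a semaphorin receptor gene, 6 regions lay in 5 of 41 remote control peaks, led by one 144.3 kb from Camk1g (−log10 p 8.33) and one 510.3 kb from Plxna2 (7.59). Between Dph6 and BC052040, 6 regions lay in 927 kb and in 6 of 16 remote control peaks (37.5%, 18.5 to 61.4%). Between Celf2 and Gata3, a transcription factor gene of ectodermal derivatives, 6 regions lay in 3135 kb, 4 of them downstream of Gata3 at 526.2 to 1514.7 kb. Between Vrk1 and 3110018I06Rik, 5 regions lay in 1411 kb, with −log10 p from 3.67 to 6.41. In the 71 regions of the 10 intervals, 32 windows held either AP-2 string.

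**Figure D3:**
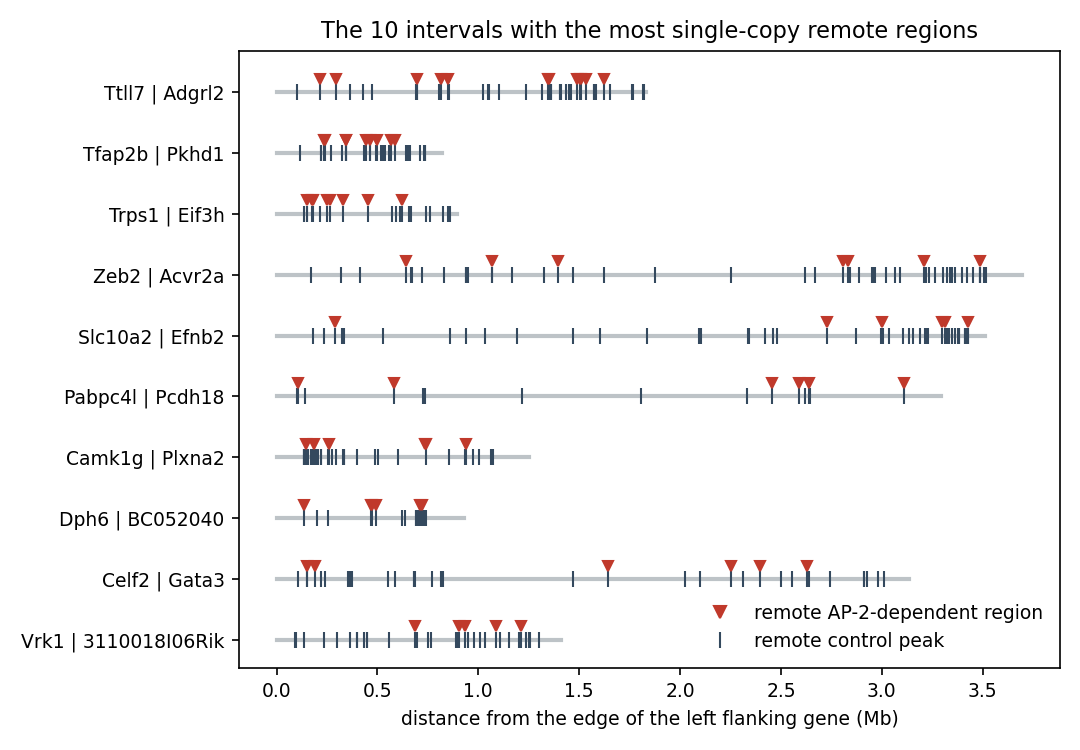
Map of the 10 gene-free intervals with the most single-copy remote regions (3 further intervals tied with the last 2 are not drawn), each drawn from the edge of its left flanking gene (x axis, distance in Mb). Triangles are the 71 remote AP-2-dependent regions, ticks the 334 remote control peaks, and the grey line the whole interval, with 12 regions between Ttll7 and Adgrl2 and 9 between Tfap2b and Pkhd1.

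At short range some regions sat in tight runs. Of the 668 single-copy regions, 80 had another within 10 kb (11.98%, 9.73 to 14.7%), and they formed 38 runs, 36 of them pairs. The same count was not made for remote control peaks, so the runs cannot be read as particular to the regions. The longest run was 5 regions in 18.6 kb upstream of Zfp703, a zinc finger gene, at 150.6 to 168.9 kb from its start (chr8:26808269-26826888), in 4 control peaks and with −log10 p from 3.65 to 7.49. A run of 3 regions in 13.0 kb lay near Gas1, a Hedgehog co-receptor gene (chr13:60035507-60048551, −log10 p 3.62 to 9.51).

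Nearest genes were many. The 668 single-copy regions had 452 different nearest genes, of which 323 were nearest to 1 region, 85 to 2 and 44 to 3 or more. The single-copy remote control peaks had 1790 different nearest genes. Over all genes, 8.99% (8.36 to 9.66%) of the 7408 single-copy remote control peaks overlapped a region, and gene lists are read against this share. Of the 97 genes of surface ectoderm and placode transcription factors, 43 were nearest to a single-copy remote control peak and 21 to a region. These 21 genes were nearest to 39 regions, and 39 of 416 control peaks overlapped one (9.38%, 6.93 to 12.6%). They included Trps1 with 7 regions, Irx2 with 5 (134.8 to 275.7 kb), Gata3 with 4, Zeb2 with 3, and Nfib, Sox4 and Sox11 with 2 each. Genes with 1 region included Bcl11b, Id2, Irx1, Isl1, Klf3, Klf5, Meis1, Otx2, Sall3, Sox2 and Tbx3. The Otx2 region, near the gene of a homeodomain factor of the anterior head, had a −log10 p of 6.32 at 162.4 kb.

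For the signals of the BMP, FGF, SHH, TGF-beta, NOTCH, ephrin and semaphorin pathways, 18 of 111 genes were nearest to 39 regions. Of the 111 genes, 47 were nearest to a single-copy remote control peak, and 38 of 328 such peaks overlapped a region (11.6%, 8.56 to 15.5%). Among ligands, Efnb2 had 5 regions, Efna5 and Sema3d 4 each, and Inhba, which encodes an activin subunit, 2 at 340.4 and 463.3 kb. Fgf9, Jag1, Sema3a and Slit2 had 1 each, the Sema3a region being the strongest (−log10 p 7.40, 271.2 kb). Among receptors and co-receptors, Robo2, a SLIT receptor gene, had 5 regions between 129.1 and 583.7 kb, Gas1 4, Plxna2 3 and Fgfr2 2, while Epha4 and Robo1 had 1 each. Hhip, an inhibitor of Hedgehog signalling, Spry2, an inhibitor of receptor signalling, and the NOTCH target Hes1 had 1 region each.

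For the WNT pathway, 2 of 68 genes were nearest to 4 regions, and 11 of the 68 to a single-copy remote control peak. Of 52 such peaks, 4 overlapped a region (7.69%, 3.03 to 18.2%). Fzd8, a WNT receptor gene, had 3, from 112.4 to 458.0 kb upstream, and Lef1, a transcription factor of the pathway, had 1 at 185.3 kb (−log10 p 5.72). For mesenchyme and neural crest regulators, 6 of 47 genes were nearest to 9 regions (9 of 124 control peaks, 7.26%, 3.87 to 13.2%). Of the 47, 18 were nearest to a single-copy remote control peak. Nr2f2, Pdgfra and Sox5 had 2 regions each, and Six2, Tcf4 and Tshz1 had 1. For epithelial adhesion and keratin genes, 6 of 61 were nearest to 9 regions (9 of 84 control peaks, 10.7%, 5.74 to 19.1%). Of the 61, 16 were nearest to a single-copy remote control peak. The desmosomal gene Dsc3 had 3 regions, the cadherin gene Cdh6 had 2, and Cdh4, Cdh8, Gjb6 and Grip1 had 1. For each of these 5 lists the Wilson interval included the share of all genes. For the AP-2 family, 9 of 38 control peaks overlapped a region (23.7%, 13.0 to 39.2%), and all 9 were near Tfap2b.

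AP-2 strings were found around remote summits more often than around remote control summits without a region. GCCNNNGGC lay within 100 bp of the summit in 174 of 710 regions (24.51%, 21.5 to 27.8%) and in 849 of 7736 remote control peaks without a region (10.97%, 10.3 to 11.7%), a ratio of 2.23. CCTNAGG lay in 31.8% (28.5 to 35.4%) and 13.4% (12.7 to 14.2%). GCCTNAGGC, which matches both of these strings, lay in 49 regions (6.90%, 5.26 to 9.01%) and in 1.91% (1.63 to 2.24%) of those control peaks. Either of the 2 main strings was in 331 regions (46.6%) and in 22.1% of the control peaks without a region. In windows of the same length centred 1 kb to the left and right of the same summits GCCNNNGGC was in 2.54% and 2.39%. Among all autosomal control peaks it was in 14.4%, and CCTNAGG in 12.9%.

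The strings were about as frequent in the other AP-2-dependent regions. GCCNNNGGC was in 24.6% of the regions 5 to 100 kb from a start, in 20.7% of those inside transcripts and in 20.6% of those within 5 kb. The remote share of CCTNAGG, 31.8%, lay beside 30.7%, 32.0% and 22.5% in the same classes, and its interval (28.5 to 35.4%) did not overlap that of the regions within 5 kb (18.3 to 27.4%). The excess over control peaks was present at each GC content: GCCNNNGGC was in 17.5% (12.3 to 24.3%) of regions and 5.13% (3.94 to 6.64%) of remote control peaks without a region up to 41.3% GC, and in 32.6% (26.4 to 39.6%) and 16.2% (15.0 to 17.5%) above 49.8% GC. With remote control peaks grouped by their own strength, the share was higher with a region than without one in 9 of the 10 groups, but the intervals were apart only in groups 2, 4, 7 and 8. In the strongest group they were 23.4% (14.8 to 35.1%) and 18.8% (12.2 to 27.7%). The share did not grow with the strength of the region, since 4 groups of like size by summit −log10 p had shares of 23.2%, 25.8%, 25.99% and 23.0% from the weakest to the strongest. In single-copy regions the share was 23.8% (20.7 to 27.2%), and in the 42 repeated ones 35.7% (22.99 to 50.8%), intervals that overlap. CCTNAGG went the other way, with 32.9% (29.5 to 36.6%) of single-copy and 14.3% (6.72 to 27.8%) of repeated regions.

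**Figure D4:**
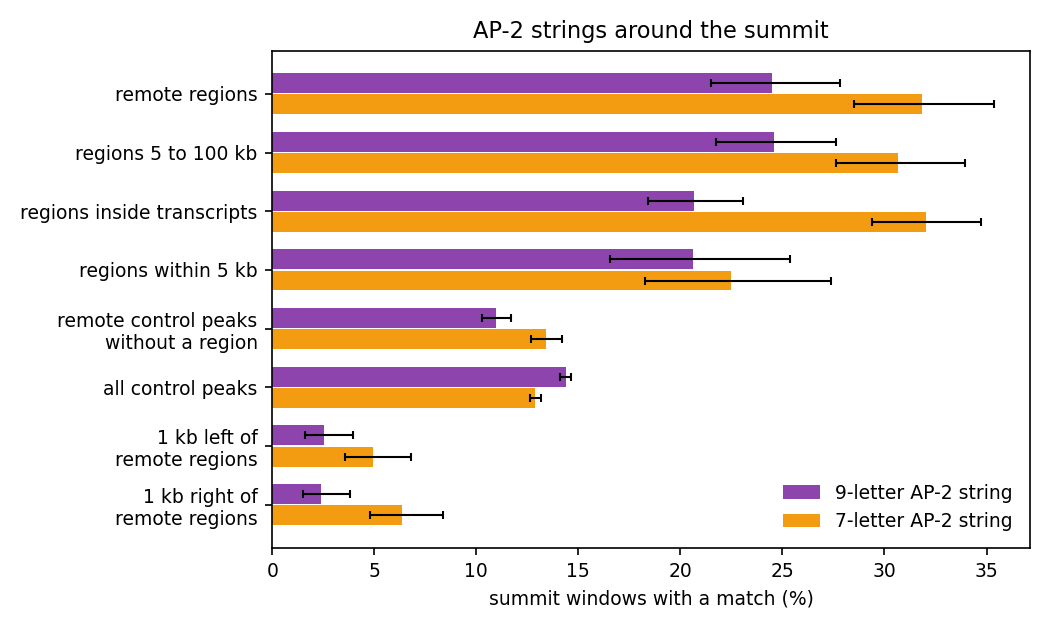
Share of summit windows (100 bases each side) that hold the 9-letter (GCCNNNGGC) or the 7-letter (CCTNAGG) AP-2 string (x axis, %), for AP-2-dependent regions by class, control peaks and windows 1 kb from the remote summits (y axis). Bars start at 0, whiskers are 95% Wilson intervals, and remote regions stand at 24.51% and 31.8% against 10.97% and 13.4% in remote control peaks without a region.

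Most regions with GCCNNNGGC had 1 match. A single match was found in 164 regions, 2 matches in 8 and 3 in 2. The centre of the nearest match lay a median of 50 bp from the summit, and within 25 bp in 52 of 174 regions (29.9%). The corresponding values for remote control peaks without a region were 41 bp and 35.3%. Of the 3 free letters, read on the strand that comes first in the alphabet, TCA was the most frequent in the 186 matches (20.4%), followed by CCA (17.7%) and AGA (10.2%). In the 898 matches of the control peaks TCA made up 14.1%, CCA 14.03% and AGA 6.90%, while CCG made up 15.1% there and 2.69% in the regions.

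Strings of other factors showed a smaller excess or none. The homeodomain string TAATTA was in 10.3% of regions (8.26 to 12.7%) and 7.08% (6.53 to 7.68%) of remote control peaks without a region. In regions 5 to 100 kb from a start it was in 7.70% (6.07 to 9.73%), against 4.29% (3.98 to 4.61%) of control peaks there without a region. The string holds only A and T, and it was not compared within GC groups. The GRHL string AACNGGTT, of the grainyhead-like factors of epithelia, was in 1.97% (1.18 to 3.28%) and 4.05% (3.63 to 4.51%). The SOX string ACAATGG was in 0.986% (0.478 to 2.02%) and 3.10% (2.74 to 3.51%), and the TEAD string GGAATG, of the factors that work with YAP, in 18.3% (15.6 to 21.3%) and 23.2% (22.3 to 24.1%). For these 3 the regions had the lower share, and the intervals did not overlap. AP-1 (TGANTCA, 7.61% and 7.15%), FOX (TGTTTAC, 3.24% and 3.92%), both PBX strings (TGATTGACA, 1.55% and 1.62%, and TGAGTGACA, 0.704% and 0.879%) and the p53 family string (9.01% and 10.7%) had overlapping intervals. The CTCF string AGGGGGCGC was in 0 of 710 regions, which allows a share of up to 0.423% by the 3 counts that a count of 0 allows and up to 0.538% by the Wilson interval, and in 0.543% (0.402 to 0.733%) of the control peaks, so a difference was not detectable. No listed string was found in 213 regions (30.0%). A match is only a run of letters, and binding was not measured.

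**Figure D5:**
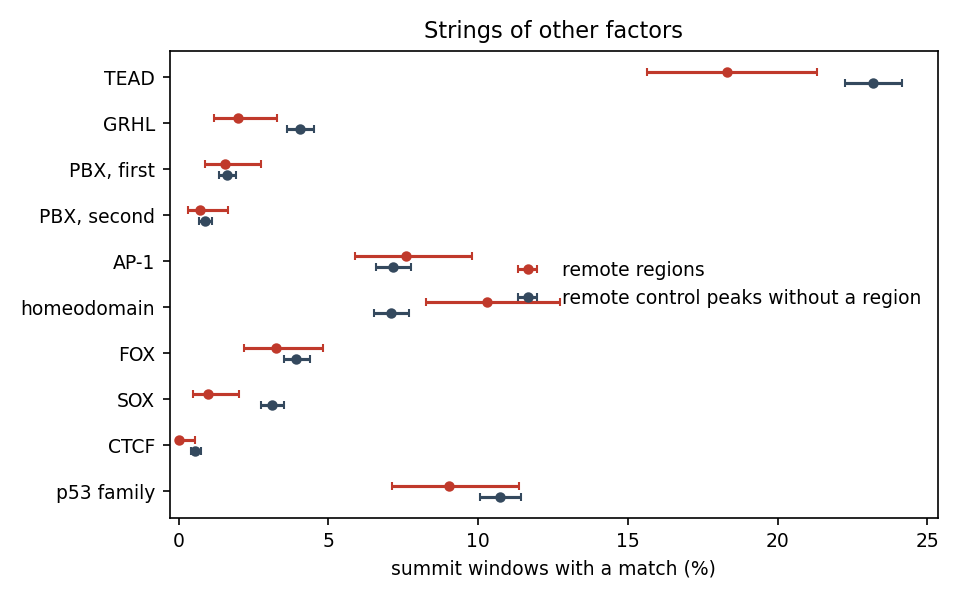
Share of summit windows (100 bases each side) with the string of each other factor (x axis, %), in 710 remote regions and in 7736 remote control peaks without a region. Points are shares and bars are 95% Wilson intervals, with the homeodomain string higher in the regions (10.3% against 7.08%) and TEAD, GRHL and SOX lower.

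Non-coding genes held fewer of the remote regions than of the remote control peaks. The summit lay inside a non-coding gene, pseudogenes left out, in 88 of 710 regions (12.4%, 10.2 to 15.0%) and in 17.1% (16.3 to 17.97%) of the remote control peaks without a region. For lincRNA genes alone, the long intergenic non-coding RNAs, the shares were 11.1% (9.02 to 13.7%) and 13.0% (12.3 to 13.8%), intervals that overlap. Within 1000 bp of a non-coding start lay 16 regions (2.25%, 1.39 to 3.63%) and 4.65% (4.21 to 5.15%) of the control peaks. The lincRNA genes with 3 regions each were 2310008N11Rik (chr8:26814593-26884380) upstream of Zfp703, A530065N20Rik (chr13:60029711-60116669) near Gas1, Gm28494 near BC052040, Gm31135 near Efnb2 and D130009I18Rik near Rnf219. The regions with the centre closest to a non-coding start were those at Gm47754 (1 bp, nearest coding gene Ly86), 4930519L02Rik (21 bp, Pkn2), Gm13219 (Gata3) and Gm44947 (46 bp, Fam181b).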

How the data were processed

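ATAC-seq was performed on facial surface ectoderm of 2 control and 2 EDKO samples at E11.5. The authors trimmed reads with NGmerge, aligned them to mm10 with Bowtie2, sorted them with SAMtools and called peaks with Genrich, leaving out PCR duplicates and mitochondrial reads. Since reads could be kept at several positions, repeated sequence can carry peaks. Both control libraries gave the control peaks, and the control libraries against both EDKO libraries gave the AP-2-dependent regions. Among the deposited columns, the score is capped at 1000, the area under the curve is a further score, and the −log10 p belongs to the summit and is unadjusted. The lists hold no read counts.

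Peaks were placed against GENCODE vM21 and GRCm38.p6, the assembly of mm10, with Python 3, numpy, pandas and scipy. Overlap was counted from 1 bp. Shares have 95% Wilson intervals and no test was run, since there are no values per library. The scripts were tested on simulated data. Regions named are the 10 single-copy members with the highest summit or area, the 5 farthest, those beside the limit, the 10 fullest intervals and the genes of the fixed lists, of which some are not reported here. Members and lists were chosen with earlier results of these data known. Alternatives changed the distance limit, area, transcripts, copy number, window and string.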

Additional observations from a re-analysis of the deposited data

How the results depend on the processing

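A distance limit of 250 kb left 353 regions, and an area of at least 500 left 243. The share of remote control peaks that overlapped a region was 9.43% with the limit of 250 kb, 6.57% when at least 50% of both intervals had to overlap, 5.46% with an area of at least 500 in both lists and 8.99% in single-copy sequence. The share of regions with the AP-2 string was 11.8% within 50 bp of the summit (5.92% in remote control peaks without a region), 31.7% over the whole region, 31.8% for CCTNAGG, 6.90% for GCCTNAGGC and 20.99% with an area of at least 500. The median distance was 226 kb to the starts of all coding transcripts. The single-copy share was 89.3% with an area of at least 500. The other 13 of 26 alternatives moved their value by less than its interval or the count by less than 1.5 times.

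No paired analysis was possible because each call joined the libraries of a group, and for the same reason none was left out in turn. The lists give no depth and no error between libraries. The nearest gene is a position, and a match is a string of letters.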

Other observations

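Repeated sequence made up a small part of the remote regions and most of the highest calls. Of the 42 repeated regions, 14 had a summit −log10 p above 10, against 6 of the 668 single-copy ones, and 9 of the 10 highest summits were repeated. The remaining one of the 10 was the ribosomal DNA stretch of chromosome 17 (208). It is also among the 6, although ribosomal DNA is present in many copies that the count of words does not show. The highest lay near Rab10 on chromosome 12 (310, median copy count 76) and Fgf14 on chromosome 14 (167, copy count 1864). All 8 regions near Hrh1 on chromosome 6 were repeated. Reads were kept at several positions in the authors' alignment, and its part in the difference between control and EDKO libraries was not tested.

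The share of remote control peaks that overlapped a region differed between chromosomes, from 4.88% on chromosome 4 (3.35 to 7.05%) and 5.03% on chromosome 8 (3.50 to 7.17%) to 12.5% on chromosome 15 (9.32 to 16.6%). The chromosomes were not tested against each other.

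Among 1795 words of 6 letters found in at least 10 single-copy regions, those with the highest ratio of regions to single-copy remote control peaks without a region were rich in A and T. They were CGAATA (1.95% against 0.979%), ATATAA (10.2% against 5.13%), AAATTT (8.38% against 4.35%), AGTACT (5.39% against 2.80%), ACGAAT (2.40% against 1.28%), CATATA (7.19% against 3.84%), ATATTA (8.38% against 4.97%), AGTTAT (10.0% against 5.99%), AAATTG (15.0% against 8.99%) and AAAATT (17.5% against 10.6%). The word CCTGAG, which is part of CCTNAGG, had rank 39 (36.2% against 23.7%) and was picked out after the values were seen. The lowest ratio was that of CCGCCC (2.40% against 7.67%). Median GC content was 45.3% in the single-copy regions and 48.3% in all remote control peaks without a region. The words were not compared within GC groups, so these ratios also carry that difference in base content.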
